A study of Mus musculus with 6 samples.

Results

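The CCN family and the genes around the transcriptional coactivators YAP and TAZ were followed in mouse adult fibroblasts (MAFs), with and without X-ray induced senescence. The members are 10 genes, chosen by name among the 43346 genes of the count table under the older CCN symbols: *Ctgf*, *Cyr61*, *Nov*, *Wisp1*, *Wisp2*, *Ankrd1*, *Amotl2*, *Yap1*, *Wwtr1* and *Lats2*. All 10 passed the filter on low counts that kept 17589 genes for the test.

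MAFs are primary cells of the ear, grown here from female C57BL6/J adults, kept at 3% oxygen and used at passages 3 to 8. RNA-seq of polyadenylated RNA was made from 3 control samples, which were sham irradiated, and from 3 senescent samples, which received 20 Gy of X-rays and were cultured for 21 more days. Both groups were given 100 nM dexamethasone for 2 hours and collected 12 hours later, so both carry the glucocorticoid treatment and the values describe a single time point. The labels do not say whether the 3 samples of a group came from separate cultures or animals. The p-values therefore set the group difference against a spread between these samples that may be technical.

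The CCN proteins are secreted matricellular proteins that bind integrins, proteoglycans and growth factors, and connective tissue growth factor (*Ctgf*, CCN2) and *Cyr61* (CCN1) are textbook products of fibroblasts under tension or TGF-β. YAP (*Yap1*) and TAZ (*Wwtr1*) carry no DNA-binding domain and act on promoters and enhancers through TEAD factors. The Hippo kinases LATS1 and LATS2 phosphorylate YAP and TAZ, which keeps them out of the nucleus, so a change in their activity need not show in their RNA. *Ctgf*, *Cyr61*, *Ankrd1*, *Amotl2* and *Lats2* are widely used as readouts of YAP and TAZ, and the last pair encode inhibitors of the pathway.

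The core of the TEAD motif, GGAATG, was searched on both strands in RefSeq promoter windows of 300 bases (build GRCm38.p6, 250 bases before and 50 after the annotated start). Windows were found for 6 of the 10 members: *Cyr61*, *Ankrd1*, *Amotl2*, *Yap1*, *Wwtr1* and *Lats2*. All 6 genes held the motif in at least 1 window, and 7 of their 8 windows did, compared to 14.7% of the 32851 windows in the reference. The 2 windows of *Wwtr1* overlap and share a single match. *Ankrd1* held the motif at 2 positions, and 1.36% of all windows held it at 2 or more. The stretch of 250 bases upstream of *Cyr61* (chr3:145649986-145650235, minus strand), a strongly expressed member that rose, and that of *Wwtr1* (chr3:57575911-57576160, minus strand), a coactivator gene that rose, are shown 5′ to 3′ on the gene's strand. Capitals mark GGAATG or its reverse complement CATTCC.
Cyr61: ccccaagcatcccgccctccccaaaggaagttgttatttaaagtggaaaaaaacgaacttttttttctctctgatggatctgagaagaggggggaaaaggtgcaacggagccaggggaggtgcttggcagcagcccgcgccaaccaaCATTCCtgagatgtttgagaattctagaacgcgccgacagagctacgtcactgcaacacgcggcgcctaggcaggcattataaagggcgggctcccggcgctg
Wwtr1: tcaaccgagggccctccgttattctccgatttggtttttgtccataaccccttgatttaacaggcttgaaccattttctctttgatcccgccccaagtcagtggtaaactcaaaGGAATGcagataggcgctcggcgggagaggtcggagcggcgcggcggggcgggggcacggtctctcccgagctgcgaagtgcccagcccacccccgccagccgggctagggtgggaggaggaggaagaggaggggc

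For the other 4 genes, 30 bases around each match are given so that the member with the largest increase (*Ankrd1*) can be set beside one that did not rise (*Amotl2*). The matches began 210 and 123 bases before the start of *Ankrd1* (chr19:36120037-36120066 and chr19:36119950-36119979, minus strand), 65 bases before that of *Amotl2* (chr9:102717727-102717756, plus strand), 141 bases before that of *Yap1* (chr9:8004720-8004749, minus strand) and 4 bases after that of *Lats2* (chr14:57746102-57746131, minus strand).
Ankrd1, distal: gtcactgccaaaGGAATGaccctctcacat
Ankrd1, proximal: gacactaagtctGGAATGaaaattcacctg
Amotl2: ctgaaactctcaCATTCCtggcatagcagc
Yap1: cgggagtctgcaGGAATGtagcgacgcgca
Lats2: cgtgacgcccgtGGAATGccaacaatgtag

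The motif therefore lay near the starts of members that rose and of *Amotl2*, which did not. The AP-1 motif TGANTCA was in none of the 8 windows, compared to 7.81% of all windows, and the E-box CACGTG was in 2 of them, in *Yap1* and *Lats2*, compared to 7.15% of all windows. A match is a run of letters, and binding was not analysed here.

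Libraries held between 50288454 and 82229553 counts. The cells labelled senescent had 9.60 ± 1.49 CPM (counts per 1000000 counts of the TMM-scaled library, SD, n = 3) of the proliferation gene *Mki67*, compared to 589 ± 17.3 CPM in control cells, and 620 ± 16.3 CPM of the cell cycle inhibitor *Cdkn1a*, compared to 123 ± 2.01 CPM. All 9 fibroblast genes of a marker list were tested, with 3 higher and 5 lower in senescent cells. Their summed level was between 17810 and 19900 CPM in control libraries and between 6709 and 8011 CPM in senescent libraries. Most of the sum was *Col1a1*, *Col1a2*, *Col3a1* and *Vim*, which were lower, as was *Pdgfra*, while *Thy1*, *Dcn* and *Lum* were higher. Senescent replicate 3 stood apart, with a root mean square log2 difference of 0.288 and 0.308 from the other senescent libraries, which differed from each other by 0.138, so its effect is given where it moved a member.

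Compared to control cells, senescent cells had higher RNA of 4 of the 5 CCN members and lower RNA of *Wisp2*. Of the 10 members, 8 were higher and 2 lower when 0.05 was set as the limit of the adjusted p (quasi-likelihood test of edgeR, Benjamini-Hochberg adjustment over all tested genes). This rule called 70.3% of all tested genes, 36.2% as higher and 34.1% as lower. By the rule of the study's methods, an unadjusted p under 0.05 with a log2 fold change beyond 1 in either direction, 7 members were higher and 0 lower, where 30.1% of all tested genes passed, 17.8% as higher and 12.3% as lower. The median log2 fold change of the members was 1.09, compared to 0.01 over all tested genes. The control and senescent values did not overlap in any of the 10 members, as in 75.3% of all tested genes.

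**Figure D1:**
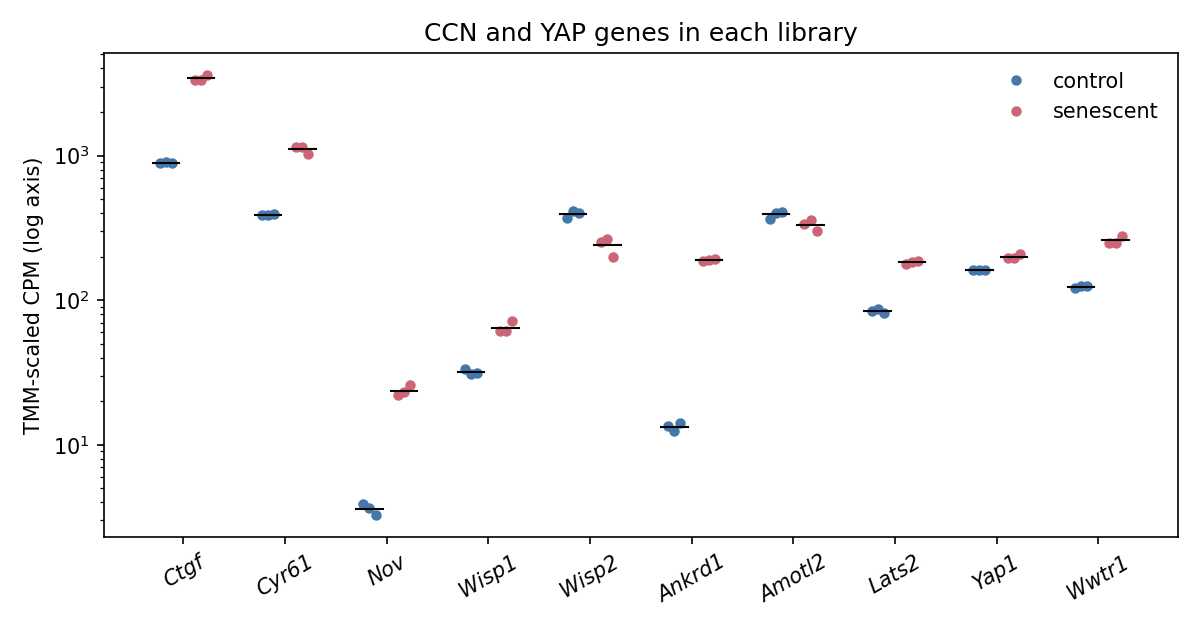
Level of each member in each library, as TMM-scaled CPM on a log axis, with blue points for the 3 control and red points for the 3 senescent libraries and a black line at each group's mean. *Ctgf* has the highest values in both groups, *Ankrd1* and *Nov* have the widest gaps between groups, and *Wisp2* and *Amotl2* are the members whose senescent points lie below the control points.

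*Ctgf* (ENSMUSG00000019997, chr10:24595442-24598683, plus strand) was the most abundant member. Its levels were 892, 898 and 881 CPM in control replicates 1, 2 and 3, and 3339, 3349 and 3603 CPM in senescent replicates 1, 2 and 3. All senescent libraries lay far above all control libraries, and the spread within a group was small. The mean rose 3.85-fold, from 890 ± 8.67 to 3430 ± 150 CPM (SD, n = 3 per group), and the log2 fold change was 1.95 ± 0.06 (SE, adjusted p = 5.75e-08, edgeR). It was higher than the log2 fold change of 90.2% of all tested genes.

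*Cyr61* (ENSMUSG00000028195, chr3:145646971-145649985, minus strand), like *Ctgf* the gene of an integrin ligand, was at 386, 386 and 393 CPM in the control libraries and at 1141, 1147 and 1026 CPM in the senescent libraries. Senescent replicate 3 was the lowest of its group for *Cyr61* and the highest for *Ctgf*. *Cyr61* rose 2.85-fold, and the log2 fold change was 1.51 ± 0.06 (SE, adjusted p = 3.94e-07, edgeR). The ratio of *Ctgf* to *Cyr61*, both as CPM per kilobase of gene length, was 1.64, 1.65 and 1.59 in control libraries and 2.07, 2.07 and 2.49 in senescent libraries. The ratio did not overlap between the groups, and the exact two-sided permutation test gave p = 0.1, the smallest value that 3 samples against 3 allow.

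*Nov* (ENSMUSG00000037362, CCN3, chr15:54745702-54754039, plus strand) encodes a CCN protein that is often described as opposing CCN2. It was the least abundant tested member in CPM, with 159 to 220 counts per control library and 1216 to 2174 per senescent library. Its levels were 3.91, 3.68 and 3.25 CPM in control cells and 21.9, 23.1 and 25.8 CPM in senescent cells. *Nov* rose 6.53-fold, the largest change within the CCN family, and the log2 fold change was 2.71 ± 0.11 (SE, adjusted p = 3.11e-07, edgeR).

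*Wisp1* (ENSMUSG00000005124, CCN4, chr15:66891320-66923201, plus strand), a Wnt-induced gene of mesenchymal cells, was at 33.2, 31.1 and 31.2 CPM in control cells and at 60.9, 61.0 and 72.0 CPM in senescent cells. Senescent replicate 3 was the highest library. The fold change was 2.03 and the log2 fold change 1.02 ± 0.08 (SE, adjusted p = 1.59e-05, edgeR). Without senescent replicate 3, the log2 fold change of *Wisp1* was 0.95, below the fold limit of the study's methods.

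*Wisp2* (ENSMUSG00000027656, CCN5, chr2:163820861-163833146, plus strand) encodes the CCN protein that lacks the C-terminal domain of the others. It was at 371, 415 and 402 CPM in control cells and at 254, 264 and 199 CPM in senescent cells. Every senescent library was below every control library, and senescent replicate 3 was the lowest. The level was 1.66-fold lower in senescent cells, and the log2 fold change was -0.73 ± 0.11 (SE, adjusted p = 0.000507, edgeR), and the log2 fold change was -0.61 without senescent replicate 3. The remaining family gene, *Wisp3* (CCN6), was counted 2, 6 and 5 times in the control libraries and 3, 1 and 1 times in the senescent ones. It was below the filter on low counts and was not tested.

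Per kilobase of gene length, the summed level of the CCN family went from 716 ± 12.7 to 1888 ± 6.48 CPM per kilobase (SD, n = 3 per group). *Ctgf* made up 43.5 ± 0.783% of this sum in control and 63.5 ± 2.69% in senescent cells. The share of *Wisp2* was 28.8 ± 1.15% in control and 6.58 ± 0.968% in senescent cells, while that of *Cyr61* was 26.7 ± 0.491% and 28.9 ± 1.82%, with overlapping values. *Wisp1* and *Nov* together with *Wisp3* held the small remainder. In control cells *Wisp2* and *Cyr61* stood next to each other, at 206 ± 11.8 and 191 ± 1.89 CPM per kilobase, and their values overlapped. In senescent cells *Cyr61* was 4.39 times the level of *Wisp2* on this scale.

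**Figure D2:**
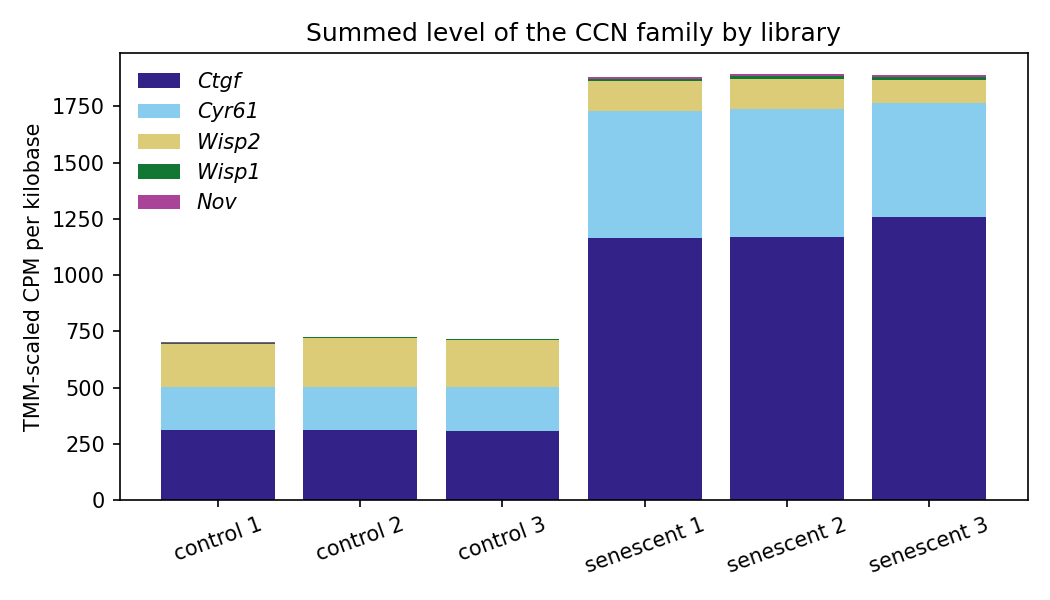
Summed level of the CCN genes in each of the 6 libraries, as TMM-scaled CPM per kilobase, with the bar of each library divided by gene. The senescent bars end between 1880 and 1893, the control bars between 702 and 727, and the part of *Wisp2* is smaller in every senescent library.

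Markers of cartilage cells, which also express CCN genes, were lower in senescent cells, where the summed level of the CCN family was higher. Of 10 chondrocyte genes, 9 were tested and all 9 were lower in senescent cells, with a summed level between 7404 and 7948 CPM in control and between 610 and 687 CPM in senescent libraries. Their part in the CCN values was not tested. In bulk samples, fewer cells of a type and less RNA per cell cannot be told apart.

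Among the readouts of YAP and TAZ, *Ankrd1* had the largest increase and *Amotl2* none. *Ankrd1* (ENSMUSG00000024803, chr19:36111965-36119844, minus strand) encodes a cardiac ankyrin repeat protein of muscle that is also induced in stressed fibroblasts. Its levels were 13.5, 12.4 and 14.1 CPM in control cells and 187, 191 and 194 CPM in senescent cells. The senescent libraries varied little, with a coefficient of variation of 1.78%, the lowest of any member in that group. *Ankrd1* rose 14.3-fold, and the log2 fold change was 3.84 ± 0.07 (SE, adjusted p = 1.25e-08, edgeR), above 96.0% of all tested genes. Of 9 skeletal muscle genes, 5 were tested and 3 were higher in senescent cells. These were *Myh3* (0 in control and 0.382 CPM in senescent cells), *Des* (0.258 and 0.996 CPM) and *Ttn* (0.271 and 1.43 CPM). The list summed to between 18.4 and 22.8 CPM in control and between 19.5 and 31.4 CPM in senescent libraries. Most of the sum was *Acta1*, at 18.5 and 21.5 CPM, which did not pass. The muscle regulators *Myod1* and *Myog* had at most 1 count in any control library and at most 10 in any senescent library.

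*Lats2* (ENSMUSG00000021959, chr14:57642077-57758388, minus strand) encodes a Hippo kinase whose gene is itself a YAP target. It was at 84.2, 87.3 and 81.4 CPM in control cells and at 177, 184 and 188 CPM in senescent cells. *Lats2* rose 2.17-fold, and the log2 fold change was 1.12 ± 0.06 (SE, adjusted p = 1.12e-06, edgeR). The interval given for it in the count table runs into *Xpo4*, a gene on the same strand that held 14654 counts over the 6 libraries compared to 53586 for *Lats2*. How reads in the shared stretch were assigned is not given in the sources used here.

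*Amotl2* (ENSMUSG00000032531, chr9:102716672-102733418, plus strand) encodes an angiomotin-like protein that binds YAP and holds it in the cytoplasm. Its levels were 366, 400 and 408 CPM in control cells and 339, 357 and 302 CPM in senescent cells. Control replicate 1 and senescent replicate 2 were less than 10 CPM apart, although the groups did not overlap. The log2 fold change was -0.24 ± 0.08 (SE, adjusted p = 0.0264, edgeR), a level 1.18-fold lower in senescent cells. *Amotl2* was no longer called when libraries were scaled by their size without TMM (adjusted p = 0.0989, edgeR). The same held with a minimum of 10 counts in each of the libraries (0.0645) and without control replicate 2 (0.0871), control replicate 3 (0.0974) or senescent replicate 1 (0.0574), with log2 fold changes from -0.25 to -0.16. Without senescent replicate 3 *Amotl2* was still called, with a smaller log2 fold change of -0.16 (adjusted p = 0.00448, edgeR).

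*Yap1* and *Wwtr1* rose by different amounts. *Yap1* (ENSMUSG00000053110, chr9:7931999-8004596, minus strand) was at 160.4, 161 and 163 CPM in control cells and at 195, 194 and 209 CPM in senescent cells. It rose 1.23-fold, and the log2 fold change was 0.30 ± 0.05 (SE, adjusted p = 0.00131, edgeR). *Wwtr1* (ENSMUSG00000027803, chr3:57455649-57575910, minus strand) was at 122, 125 and 125 CPM in control cells and at 247, 249.6 and 279.8 CPM in senescent cells. It rose 2.09-fold, and the log2 fold change was 1.06 ± 0.06 (SE, adjusted p = 3.39e-06, edgeR). Per kilobase, the ratio of *Wwtr1* to *Yap1* was 1.47, 1.498 and 1.48 in control libraries and 2.46, 2.49 and 2.60 in senescent libraries. These ratios did not overlap (exact two-sided permutation test, p = 0.1, the smallest value that 3 against 3 allow).

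The 4 TEAD genes, which encode the DNA-binding partners of both coactivators, did not move together. *Tead1*, the most abundant, was at 293, 280 and 281 CPM in control cells and at 458, 462 and 545 CPM in senescent cells, which is 0.78 ± 0.08 as a log2 fold change (SE, adjusted p = 5.60e-05, edgeR). *Tead2* was lower in senescent cells, at 15.2 ± 2.13 compared to 35.2 ± 1.98 CPM (log2 fold change -1.22, adjusted p = 3.37e-05, edgeR). *Tead4* was lower as well, at 12.2 ± 0.721 compared to 26.3 ± 0.801 CPM (log2 fold change -1.11, adjusted p = 5.63e-06, edgeR). *Tead3* was at 28.0 ± 6.36 CPM in senescent and 34.6 ± 3.22 CPM in control cells and did not pass (adjusted p = 0.131, edgeR). Per kilobase, the 4 genes summed to 48.0 ± 0.694 CPM per kilobase in control and 56.4 ± 2.31 in senescent cells, and *Tead1* alone held 25.3 ± 0.640 and 43.4 ± 4.38 CPM per kilobase of these sums.

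**Figure D3:**
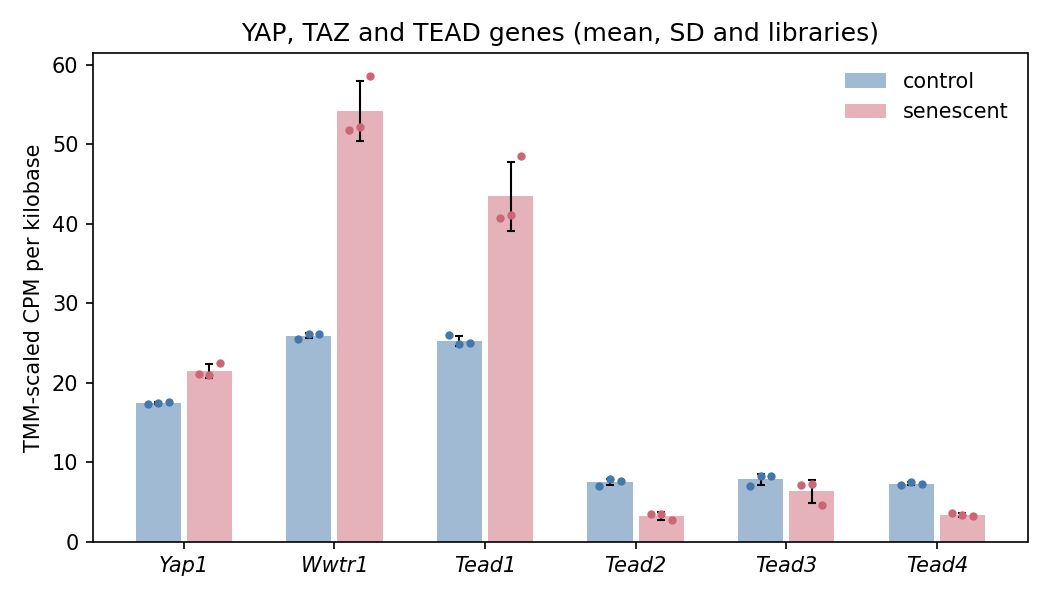
Levels of *Yap1*, *Wwtr1* and the 4 TEAD genes as TMM-scaled CPM per kilobase, with bars for the mean of 3 libraries, error bars for the SD and points for libraries. *Wwtr1* goes from 25.9 to 54.2 and *Tead1* from 25.3 to 43.4, while *Tead2* and *Tead4* have lower bars in senescent cells.

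On the scale of CPM per kilobase, the members in control cells followed the order *Ctgf*, *Wisp2*, *Cyr61*, *Amotl2*, *Wwtr1*, *Yap1*, *Lats2*, *Ankrd1*, *Wisp1* and *Nov*. In senescent cells the order was *Ctgf*, *Cyr61*, *Wisp2*, *Ankrd1*, *Wwtr1*, *Amotl2*, *Lats2*, *Yap1*, *Wisp1* and *Nov*. The neighbours *Wisp2* and *Cyr61* overlapped in control cells, and *Wisp2* and *Ankrd1* as well as *Wwtr1* and *Amotl2* overlapped in senescent cells. *Ankrd1* went from 7.56 ± 0.475 to 108 ± 1.92 CPM per kilobase, which placed it above *Amotl2*, at 62.2 ± 3.52 and 52.9 ± 4.44. *Lats2*, at 11.5 ± 0.408 in control cells, was below *Yap1*, at 17.4 ± 0.124, and above it in senescent cells, at 25.02 ± 0.757 compared to 21.5 ± 0.867 CPM per kilobase.

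Other targets of YAP and TAZ were taken from a list of 22 genes, of which 5 are members. Of the other 17 genes, all tested, 12 passed as higher in senescent cells and 3 as lower by the adjusted p, a rule that called 36.2% of all tested genes higher and 34.1% lower. Their median log2 fold change was 0.69, compared to 0.01 over all tested genes. With the fold limit of the study's methods 7 of them (41.2%) passed, 6 as higher, where 30.1% of all tested genes passed. *Gadd45a*, a growth arrest gene, went from 10.3 ± 0.383 to 53.5 ± 2.00 CPM, a log2 fold change of 2.38. *F3*, which encodes tissue factor, went from 97.1 ± 0.980 to 276 ± 10.6 CPM, and *Crim1*, which encodes a transmembrane binder of bone morphogenetic proteins, from 66.0 ± 1.91 to 155 ± 5.47 CPM. *Igfbp3*, a binding protein of insulin-like growth factors, fell from 110.2 ± 3.34 to 45.8 ± 0.738 CPM. *Ccdc80*, a matrix protein gene, fell from 1995 ± 36.4 to 1023 ± 5.98 CPM, and *Nt5e*, which encodes the ecto-enzyme CD73, from 129.9 ± 4.39 to 102 ± 7.74 CPM. *Arhgef17* and *Rbms3* did not pass, with log2 fold changes of -0.12 and 0.10.

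The Hippo pathway was followed with a list of 39 genes, of which 4 are members. Of the 35 others, 34 were tested and *Vgll2* was not. Senescent cells had more RNA of 19 of them and less of 12 by the adjusted p, where the same rule called 36.2% of all tested genes higher and 34.1% lower. Their median log2 fold change was 0.29, compared to 0.01 over all tested genes. With the fold limit, 6 (17.6%) passed, 4 as higher, compared to 30.1% of all tested genes. *Amotl1*, the close relative of *Amotl2*, went from 144 ± 2.61 to 329 ± 5.70 CPM, a log2 fold change of 1.20 where that of *Amotl2* was -0.24. The atypical cadherin gene *Fat1* went from 695 ± 11.2 to 1411 ± 32.2 CPM, and *Dchs1*, which encodes a ligand of such cadherins, from 0.520 ± 0.130 to 9.97 ± 1.36 CPM, a log2 fold change of 4.23. *Sav1*, the scaffold of the upstream kinases, fell from 178 ± 5.91 to 98.7 ± 10.6 CPM. The kinase gene *Lats1* changed by 0.51 ± 0.10 on the log2 scale (SE), compared to 1.12 for *Lats2*. *Ajuba* and *Wtip* did not pass, with log2 fold changes of 0.15 and 0.10. The TEAD genes are part of this list.

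Receptors and binding partners of CCN proteins were taken from a list of 17 genes, all tested. Senescent cells had more RNA of 11 and less of 2 by the adjusted p. These 13 genes were 76.5% of the list, near the 70.3% of all tested genes that the rule called. The median log2 fold change was 0.81, compared to 0.01 over all tested genes. With the fold limit 6 (35.3%) passed, all as higher, compared to 30.1% of all tested genes. *Itgb3*, the β3 chain of an integrin that binds CCN1 and CCN2, went from 10.6 ± 0.757 to 45.9 ± 0.987 CPM, a log2 fold change of 2.12. The small proteoglycan *Dcn* went from 56.6 ± 0.377 to 643 ± 65.2 CPM. *Bmp4* was counted 4, 4 and 2 times in the control libraries and 114, 191 and 183 times in the senescent ones. *Lrp6*, a Wnt coreceptor, fell from 292.5 ± 7.24 to 188 ± 20.5 CPM, and *Notch1*, a receptor bound by CCN3, from 48.6 ± 4.25 to 25.2 ± 6.16 CPM. *Fn1*, *Lrp1*, *Sdc4* and *Igf1* did not pass, with log2 fold changes from -0.11 to 0.06. *Lrp1* was at 1093, 1255 and 1225 CPM in control and at 1347, 1465 and 868 CPM in senescent replicates 1, 2 and 3.

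**Figure D4:**
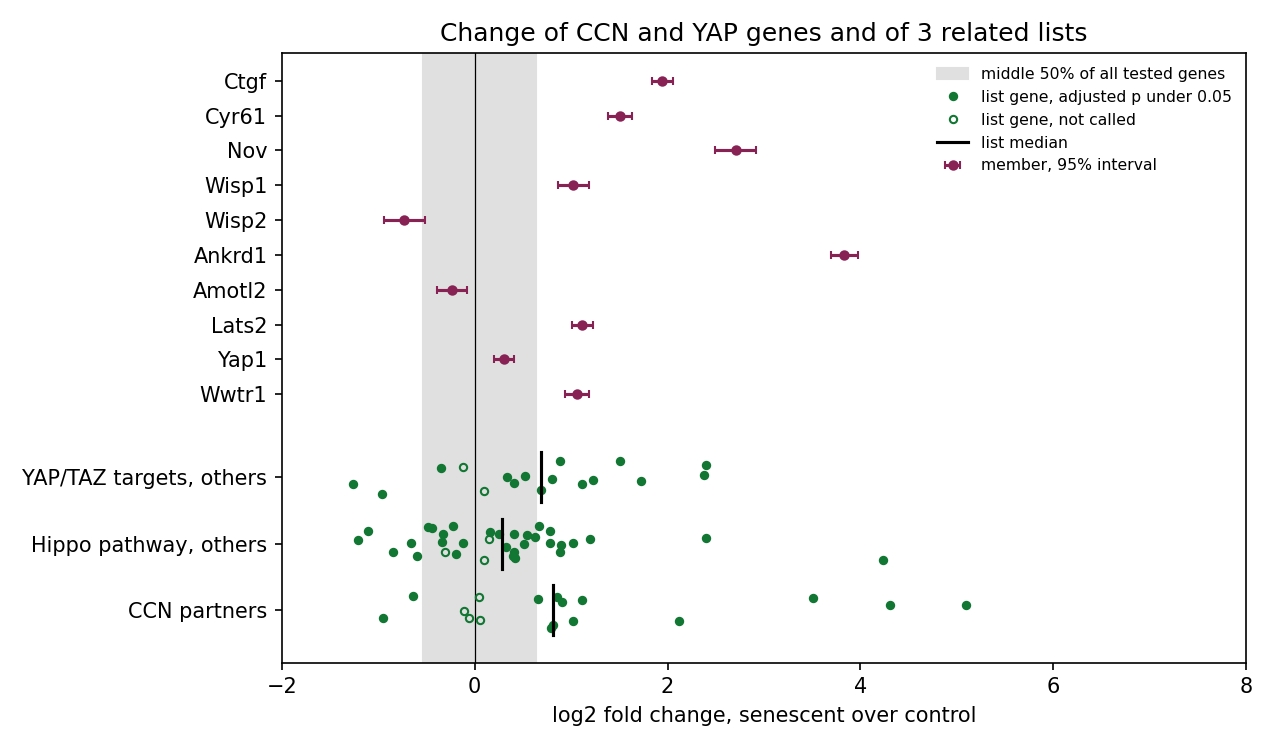
Log2 fold change of senescent over control cells for the 10 members, with approximate 95% intervals from the standard error, and for the genes of 3 lists that are not members, with filled points where the adjusted p was under 0.05 and a black line at each list's median. The grey band holds the middle 50% of all tested genes, from -0.54 to 0.63, and 8 members lie to the right of 0, *Ankrd1* farthest.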

How the data were processed

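Gene counts were deposited as 1 table of raw counts for 3 control and 3 senescent samples. Per the methods of the study, the authors prepared stranded polyadenylated RNA libraries from 200 ng of RNA, sequenced 100-base read pairs, aligned the pairs by STAR (MAPRSeq, build mm10) and counted them per gene by Subread. The strand setting of the counting is not given in the sources used here. Strands were taken from GENCODE, since the table gives none.

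Genes were filtered with filterByExpr and scaled by TMM, and the groups were compared with edgeR 4.0.16 (robust quasi-likelihood F test, R 4.3.3) without covariates. Benjamini-Hochberg adjustment was over all 17589 tested genes, and the standard error is the log2 fold change divided by the root of F. CPM per kilobase used the gene length in the table. Single ratios were compared by an exact permutation test. The fit was tested on simulated data. Alternatives were RLE or library size scaling, other filters, the edgeR exact test, DESeq2 1.42.0, a replicate block and leaving out each library.

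The members and lists were chosen with earlier results of these data known, and the lists were written from memory and not checked against published lists. Genes named beside the members were the 3 non-member genes with the smallest p in each direction in each list, the TEAD genes, *Wisp3*, *Mki67* and *Cdkn1a*, and the 3 nearest profiles of *Ctgf*, *Cyr61* and *Ankrd1*. *Lats1*, the muscle genes and the list genes that did not pass were named after their values were seen. The same holds for the genes named for fibroblasts, keratinocytes, Schwann cells, melanocytes and adipocytes. Replicate errors are SDs over 3 libraries, with 50288454 to 82229553 counts each.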

Additional observations from a re-analysis of the deposited data

How the results depend on the processing

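Under 13 alternatives, 124 of the 130 log2 fold changes of the members kept their direction and their side of the threshold, and the other 6 were all of *Amotl2*. The number of members called lower was 1 in place of 2 with scaling by library size alone, with at least 10 counts in every library, and with the replicate number as a replicate block, where *Amotl2* had an adjusted p of 0.0531 in edgeR's quasi-likelihood test. It was between 1 and 2 when a library was left out. Deviations of libraries with the same number correlated at -0.37, 0.29 and -0.26, which gave no sign that the numbers pair the samples. With 3 libraries a group, these correlations cannot exclude pairing. The block gave 11624 genes by adjusted p, compared to 12365 without it. With at least 10 counts in every library, 3483 genes passed the fold limit in place of 5300, since fewer genes were tested. The number of CCN partner genes lower by the fold limit was between 0 and 1 when a library was left out, and was 1 without control replicate 1, senescent replicate 1 or senescent replicate 2. No direction reversed among the members or the 19 named list genes. The order of the members per kilobase was the same with library size scaling, which cannot change the order within a library. At 3 libraries a group, the exact permutation test of single ratios could not go below p = 0.1.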

Other observations

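Among 12957 genes with a mean count of at least 100, those whose centred log2(CPM + 0.01) values over the 6 libraries lay closest to *Ctgf* were *Fez1* (Euclidean distance 0.0518), *Gm20544* (0.0718) and *Mdm2* (0.0721), the last a p53-induced ubiquitin ligase. The closest to *Cyr61* were *Tnfrsf1b* (0.0754), *Zdhhc24* (0.0898) and *Rin1* (0.0976). *Ankrd1* was closest to *Spry4* (0.140), *Igf2* (0.152) and *Atp6v0e2* (0.165). The nearest member to *Ctgf* was *Cyr61*, at rank 331, the nearest to *Cyr61* was *Lats2*, at rank 512, and the nearest to *Ankrd1* was *Nov*, at rank 195. With 2 groups, these distances mostly follow the size of the difference between the groups.

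Macrophage genes summed to between 4.85 and 5.54 CPM in control and between 14.5 and 16.8 CPM in senescent libraries, and endothelial genes to between 2.55 and 2.93 CPM and between 8.16 and 8.71 CPM. Keratinocyte genes summed to between 16.4 and 16.98 CPM in control and between 9.50 and 9.93 CPM in senescent libraries, Schwann cell and melanocyte genes to between 34.1 and 35.9 CPM and between 21.4 and 22.7 CPM, and adipocyte genes to between 35.2 and 38.9 CPM and between 25.3 and 27.7 CPM. In control cells, most of the keratinocyte sum was *Trp63* and most of the Schwann cell and melanocyte sum was *Mbp*. The adipocyte sum was nearly all *Fabp4*. These genes were lower in senescent cells. By the adjusted p, 1 of 4 tested keratinocyte genes was lower and 1 higher (*Cdh1*). Of 5 tested Schwann cell and melanocyte genes, 3 were lower and 1 higher (*Mitf*). Of 2 tested adipocyte genes, 1 was lower and 1 higher (*Adipoq*). The part of these cell types in the values of the members was not tested.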
